A study of Mus musculus with 27 samples.

Results

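Heatr5a and Akap6 are neighbouring genes on mouse chromosome 12 and were taken by symbol, 2 of the 55487 genes in the counts table. Both were chosen by their read counts in C3-/- against C3+/+ mice, within each run and Gne genotype, so their values in those contrasts are given as a description with standard errors and no p-value. The tests below concern Gne genotype, sequencing run and the genes around them, by which they were not chosen. The C3 effect is also compared between Gne genotypes and between runs. These differences are built from the contrasts that chose the genes, so their tests are not independent of the choice. The retinas came from mice aged 9 months and were profiled by QuantSeq, a 3′ mRNA kit. The groups were Gne+/- C3-/- (6 libraries, heterozygous for a Gne knockout and lacking C3), Gne+/- (7 libraries, with C3 intact), C3-/- (7 libraries, with intact Gne) and wildtype (7 libraries, Gne+/+ and C3+/+). Sequencing run 1 held 4, 5, 4 and 5 of these libraries, and run 2 held 2, 2, 3 and 2. Each library came from a separate mouse. C3-/- animals descend from a cross with a complement knockout line, so the loss of C3 and any other sequence carried by that line cannot be told apart.

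HEATR5A is one of a pair of related HEAT repeat proteins in mammals. Its paralogue HEATR5B works in human cells with the aftiphilin complex and the clathrin adaptor AP-1, which sort cargo between the trans-Golgi network and endosomes. Akap6 encodes a large A-kinase anchoring protein, also called mAKAP, which holds protein kinase A, the phosphodiesterase PDE4D and the phosphatase calcineurin at the nuclear envelope. It is best known in heart muscle, and its neuronal form has been studied in retinal ganglion cells. C3 is the protein on which the complement pathways converge, and the product of Gne catalyses the entry steps of sialic acid production.

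Heatr5a (ENSMUSG00000035181) lies on the minus strand at chr12:51875871-51971321 in GRCm38 and spans 95.5 kb. Its 35 merged exons cover 21.7% of that span, and the remaining 78.3% is intron. The annotation gives it 8 transcripts with 8 different ends, 2 of them coding. Akap6 (ENSMUSG00000061603) lies on the plus strand at chr12:52699383-53155599 and spans 456 kb, of which 14 merged exons cover 3.25% and introns 96.7%. It has 2 annotated transcripts with 2 ends. The gap between the genes is 728061 bp and holds 13 annotated genes. Reads in introns were counted for both genes, so a count can come from any part of the span and from any transcript end. Other genes overlap 0.116% of the span of Akap6 and none of Heatr5a, so few reads are lost to the rule that drops reads falling in 2 genes.

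The start regions are shown because both genes moved with C3 genotype, in opposite directions. Both were matched by symbol in RefSeq (GRCm38.p6), and each runs from 250 bases before the gene start to 50 bases after it, with the motif matches in capitals. The Heatr5a window is chr12:51971272-51971571 on the minus strand, and the Akap6 window is chr12:52699133-52699432 on the plus strand.
Heatr5a: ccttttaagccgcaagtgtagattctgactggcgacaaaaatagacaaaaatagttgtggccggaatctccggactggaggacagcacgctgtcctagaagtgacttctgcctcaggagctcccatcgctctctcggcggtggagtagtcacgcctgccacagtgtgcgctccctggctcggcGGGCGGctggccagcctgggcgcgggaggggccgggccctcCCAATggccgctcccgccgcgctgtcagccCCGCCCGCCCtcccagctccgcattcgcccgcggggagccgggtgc
Akap6: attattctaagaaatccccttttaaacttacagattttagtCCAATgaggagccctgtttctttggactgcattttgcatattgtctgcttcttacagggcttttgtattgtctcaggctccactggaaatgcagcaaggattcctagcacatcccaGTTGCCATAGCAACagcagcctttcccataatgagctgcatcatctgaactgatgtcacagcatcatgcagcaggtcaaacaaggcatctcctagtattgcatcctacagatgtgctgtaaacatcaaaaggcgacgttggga
The Heatr5a window had a GC content of 66.7% and 27 CpG dinucleotides, against medians of 52.7% and 7 over 32851 RefSeq promoters. The Akap6 window had 43.7% and 2 CpG. Motifs were searched on both strands. The GC box GGGCGG had 3 matches at Heatr5a, at −67, 4 and 8 bases from the start base counted as 0, the last 2 overlapping each other, and 0 at Akap6. GGGCGG occurs in 35.7% of promoters. CCAAT occurred at −26 in Heatr5a and at −209 in Akap6, and in 37.4% of promoters. An X box, the motif of RFX factors, stood at −93 in Akap6, with 0 matches in Heatr5a. The X box occurs in 1.53% of promoters and was added to the search after the Akap6 sequence had been seen. The CREB motif in its short form TGACG (20.8% of promoters), the same in its full form TGACGTCA (1.79% of promoters), the TATA box TATAAA (13.6% of promoters) and the E box CACGTG (7.15% of promoters) had 0 matches in either window. A match is a description of the letters and not a bound site.

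Heatr5a was higher in C3-/- retinas than in C3+/+ retinas in both runs and at both Gne genotypes, and Akap6 was lower. Levels are in CPM, the count of a gene per unit of TMM-scaled library size. In run 1, Heatr5a had 105, 97.0, 96.5 and 88.7 CPM in C3-/- mice 1, 2, 5 and 6, against 42.4, 47.8, 45.4, 37.4 and 42.2 CPM in wildtype mice 1, 2, 4, 5 and 6. In run 2 it had 162, 164 and 141 CPM in C3-/- mice 7, 8 and 9, against 56.0 and 59.5 CPM in wildtype mice 7 and 8. The lowest C3-/- library therefore lay above the highest wildtype library within each run, as for 1.23% of genes in run 1 and 11.1% in run 2. The ratios of means were 2.25 in run 1 and 2.69 in run 2.

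With 1 working copy of Gne the picture for Heatr5a was alike in size. In run 1 it had 83.8, 113, 100.4 and 103 CPM in Gne+/- C3-/- mice 3, 4, 5 and 6, against 58.4, 56.4, 31.2, 43.9 and 43.8 CPM in Gne+/- mice 1 to 5. In run 2 it had 150.2 and 150.5 CPM in Gne+/- C3-/- mice 7 and 8, against 55.7 and 61.0 CPM in Gne+/- mice 7 and 8. The groups did not overlap in either run, as for 1.38% and 17.7% of genes in the same direction, and the ratios of means were 2.14 and 2.58. Over all 27 libraries the counts behind these values ran between 609 and 5944 reads.

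Akap6, the anchoring protein gene, went the other way. In run 1 it had 333, 365, 313 and 389 CPM in C3-/- mice 1, 2, 5 and 6, against 475, 444, 471, 529 and 639 CPM in wildtype mice 1, 2, 4, 5 and 6. In run 2 it had 381, 403 and 424 CPM in C3-/- mice 7, 8 and 9, against 804 and 809 CPM in wildtype mice 7 and 8. The groups did not overlap in either run, as for 0.948% of genes in the same direction in run 1 and 9.99% in run 2, and the ratios of means were 0.684 in run 1 and 0.50 in run 2.

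In Gne+/- mice the Akap6 groups separated in run 2 and overlapped in run 1. In run 1 it had 359, 323, 413 and 396 CPM in Gne+/- C3-/- mice 3, 4, 5 and 6, against 382, 422, 463, 411 and 634 CPM in Gne+/- mice 1 to 5. The means were 373 ± 40.1 CPM in Gne+/- C3-/- retinas (SD, n = 4) and 462 ± 100.0 CPM in Gne+/- retinas (SD, n = 5), a ratio of 0.806. In run 2 it had 392 and 423 CPM in Gne+/- C3-/- mice 7 and 8, against 901 and 814 CPM in Gne+/- mice 7 and 8, a ratio of 0.475. This separation was shared with 18.5% of genes in the same direction. Akap6 counts ran between 4380 and 27032 reads per library.

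**Figure D1:**
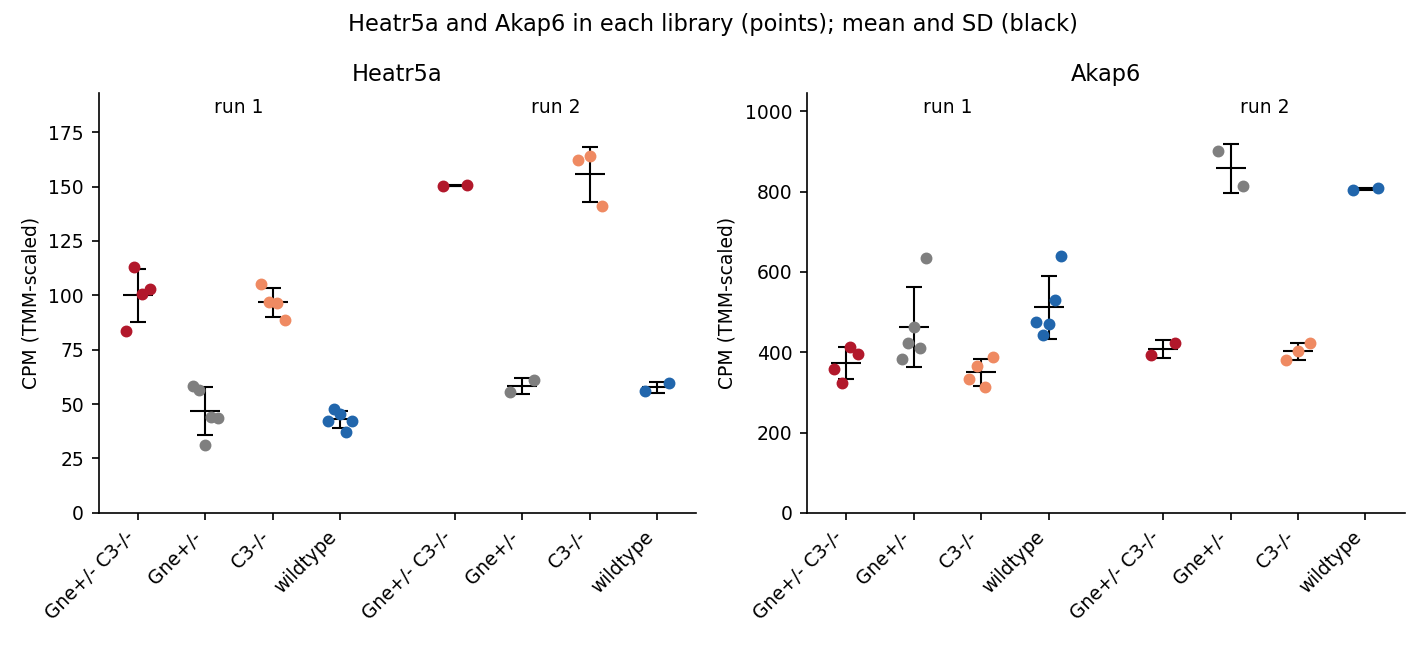
CPM of Heatr5a (left) and Akap6 (right) in each library, by group within run 1 and run 2; points are libraries and black marks are the mean and SD. All C3-/- libraries lie above the C3+/+ libraries of the same run and Gne genotype for Heatr5a, and below them for Akap6 except in run 1 of the Gne+/- pair.

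The fit over all 27 libraries gave a log2 fold change of 1.27 (SE 0.124) for Heatr5a in C3-/- against wildtype and 1.18 (SE 0.127) in Gne+/- C3-/- against Gne+/-, which are folds of 2.41 and 2.26. For Akap6 it gave −0.71 (SE 0.127) and −0.55 (SE 0.132), which are folds of 0.610 and 0.684. At an adjusted p under 0.05 in edgeR's quasi-likelihood test, 0.167% of the 17409 genes tested passed in C3-/- against wildtype, 0.0747% higher and 0.0919% lower. In Gne+/- C3-/- against Gne+/-, 0.19% passed, 0.0919% higher and 0.0977% lower. These shares are background, and no call is read from them for Heatr5a or Akap6. Genes whose C3-/- libraries lay above the C3+/+ libraries in all 4 cells of run and Gne genotype made up 0.0804% of those tested, and Heatr5a is one of these 14. Akap6 misses the matching count of 14 lower genes through its overlap in run 1 of the Gne+/- pair. These separations use the contrasts that chose the genes and are a description. In bulk retina, fewer cells of a type and less RNA per cell cannot be told apart.

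The C3 effect on either gene did not differ detectably between Gne genotypes. This comparison is built from the contrasts that chose the genes, so its test is not independent of the choice. The difference of log2 fold changes, with 1 Gne copy less with 2, was −0.09 for Heatr5a (SE 0.175, 95% interval −0.46 to 0.27) and 0.16 for Akap6 (SE 0.182, interval −0.21 to 0.54), each with an adjusted p of 1 in edgeR. Over all genes, 0% passed this test in edgeR, with 0 genes called there.

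Gne genotype itself moved neither gene past the threshold. For Gne+/- against wildtype, Heatr5a had a log2 fold change of 0.09 (SE 0.122, interval −0.16 to 0.34, edgeR adjusted p = 0.946), and Akap6 had −0.07 (SE 0.126, interval −0.33 to 0.19, edgeR adjusted p = 0.958). For Gne+/- C3-/- against C3-/-, the value was −0.00 for Heatr5a (SE 0.127, interval −0.26 to 0.26) and 0.09 for Akap6 (SE 0.131, interval −0.18 to 0.37), each with an edgeR adjusted p of 1. In each of these comparisons 0.00574% of genes passed. The intervals leave room for changes of either gene of up to 0.37 on the log2 scale.

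Both genes were higher in run 2 than in run 1. The log2 fold change was 0.51 for Heatr5a (SE 0.0924, edgeR adjusted p = 1.19e-05) and 0.47 for Akap6 (SE 0.095, edgeR adjusted p = 5.69e-05). The runs differed widely, with 59.5% of genes past the threshold and 30.3% higher in run 2, so these calls are near the background of the comparison. For Akap6 the run ratio of means, run 2 over run 1, was 1.09 in Gne+/- C3-/-, 1.85 in Gne+/-, 1.15 in C3-/- and 1.58 in wildtype. For Heatr5a it was 1.5 in Gne+/- C3-/-, 1.25 in Gne+/-, 1.61 in C3-/- and 1.34 in wildtype. By these ratios, Akap6 was nearly level between runs in retinas without C3 and higher in run 2 in those with C3. Y-linked expression, described below, also changed between runs in C3-/- and wildtype retinas, so there the 2 cannot be told apart.

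The C3 effect on Akap6 was 0.61 lower on the log2 scale in run 2 than in run 1 (difference −0.61, SE 0.169, interval −0.96 to −0.25). Its unadjusted p was 0.00119 and its adjusted p 0.471 in edgeR, where 0.0402% of genes passed. limma-voom with quality weights gave −0.67 with an adjusted p of 0.00632, so the call depends on the tool. With the Y-linked class as an added term, edgeR gave −0.93 (SE 0.207, adjusted p = 0.272). In that fit the class varies within group and run only in run 1 of the Gne+/- pair. Adjusted p-values ran between 0.00632 and 0.616 over the alternatives. For Heatr5a the difference was 0.26 (SE 0.189, interval −0.13 to 0.66, edgeR adjusted p = 1).

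**Figure D2:**
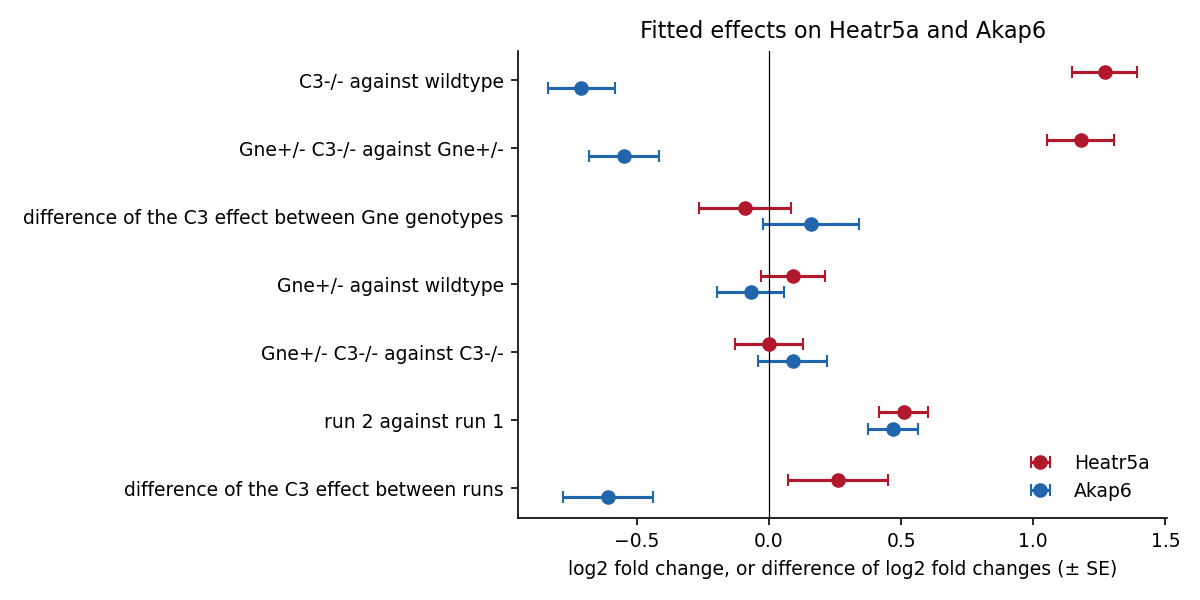
Fitted log2 fold changes, or differences of log2 fold changes in the rows so named, for Heatr5a (red) and Akap6 (blue), with bars of 1 SE. Heatr5a stands at 1.27 and 1.18 and Akap6 at −0.71 and −0.55 in the C3 rows, while the Gne rows lie near 0.

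The genotype labels matched the targeted genes. C3 averaged 1.26 and 0.207 CPM in Gne+/- C3-/- retinas in runs 1 and 2, against 152 and 85.7 CPM in Gne+/- retinas, and 0.770 and 1.51 CPM in C3-/- retinas, against 162 and 72.6 CPM in wildtype. Gne averaged 39.6 and 13.6 CPM in Gne+/- C3-/- retinas, against 117 and 44.6 CPM in C3-/- retinas, and 47.6 and 14.7 CPM in Gne+/- retinas, against 129 and 51.2 CPM in wildtype. Retinal identity was clear from the markers, with 25446 to 69978 summed CPM for rods and 2239 to 3763 for bipolar cells. Ganglion cell markers summed to 264 to 1072 CPM, with Nefl at 0. Heart and skeletal muscle markers, a tissue in which Akap6 is prominent, summed to 7.51 to 22 CPM, with Actc1 and Acta1 at 0. Lens markers, with Cryba1 at 0, summed to 3.79 to 140.4 CPM in run 1 Gne+/- C3-/- libraries and 118 to 1438 CPM in run 1 Gne+/- libraries, the cell in which Akap6 overlapped; their part in that overlap was not tested. Reads falling in 2 genes were dropped, so a marker listed at 0 is not read as absent. Totals ran between 13.5 and 34.2 M counts.

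Y-linked expression moved with C3 genotype in part of the design. The mean of 4 Y-linked genes was above 10 CPM in 4 of 4 C3-/- libraries and 0 of 5 wildtype libraries of run 1, and in 0 of 3 C3-/- libraries and 2 of 2 wildtype libraries of run 2. Within each run of these 2 groups, lying above or below 10 CPM (the Y-linked class) cannot be told apart from C3 genotype. A term for this class rests on the same C3 effect in both runs and the same Y-linked effect in all groups. With the Y-linked class as an added term in the fit, the log2 fold changes in C3-/- against wildtype were 1.28 (SE 0.127) for Heatr5a and −0.72 (SE 0.132) for Akap6. In Gne+/- C3-/- against Gne+/- they were 1.18 (SE 0.128) and −0.55 (SE 0.134). In run 2 of the Gne+/- pair every library was above 10 CPM. In run 1 of that pair both classes were present. Above 10 CPM, Heatr5a had 83.8 and 113 CPM in Gne+/- C3-/- libraries and 58.4 and 43.9 CPM in Gne+/- libraries. Below it, Heatr5a had 100.4 and 103 CPM in Gne+/- C3-/- libraries and 56.4, 31.2 and 43.8 CPM in Gne+/- libraries. Akap6 had 359 and 323 CPM in Gne+/- C3-/- libraries and 382 and 411 CPM in Gne+/- libraries above 10 CPM. Below it, Akap6 had 413 and 396 CPM in Gne+/- C3-/- libraries and 422, 463 and 634 CPM in Gne+/- libraries.

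Among the other genes around Heatr5a, 0 passed the threshold in either C3 comparison. Of 143 other genes starting within 5 Mb, 37 were tested and 106 had too few counts. A total of 65 were listed at 0 in all libraries, 25 of them covered whole by other annotated genes and so not measurable here. The lowest adjusted p among the 37 in edgeR was 0.26 in C3-/- against wildtype and 0.0909 in Gne+/- C3-/- against Gne+/-, where 0.167% and 0.19% of all genes passed. At an unadjusted p under 0.05, 7 of the 37 stood in C3-/- against wildtype (18.9%, against 4.49% of all genes) and 9 in Gne+/- C3-/- against Gne+/- (24.3%, against 6.4%). Their log2 fold changes were positive for 23 and negative for 14 in C3-/- against wildtype, with a median of 0.08, and positive for 19 and negative for 18 in Gne+/- C3-/- against Gne+/-, with a median of 0.02. The median over all genes was −0.01 in both. None of the 37 separated the C3-/- libraries from the C3+/+ libraries in all 4 cells. Of all genes, 0.0804% did so with C3-/- higher and 0.0804% with C3-/- lower. At these shares a set of 37 genes would hold few or none, so this count does not set the members apart from their neighbours.

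On the outer side of Heatr5a, the named genes differed in mixed directions and did not pass in edgeR with the filter on low counts. Ap4s1, the small subunit of the AP-4 adaptor, had log2 fold changes of 0.44 (SE 0.16) in C3-/- against wildtype and 0.65 (SE 0.166) in Gne+/- C3-/- against Gne+/-, with edgeR adjusted p-values of 0.7 and 0.12. In run 1 Ap4s1 lay at 54.3 to 69.1 CPM in C3-/- libraries and 25.7 to 52.1 CPM in wildtype libraries, and at 42.7 to 76.0 CPM in Gne+/- C3-/- libraries and 31.8 to 53.5 CPM in Gne+/- libraries. In run 2 it lay at 61.2 to 68.9 CPM in C3-/- and 54.9 to 56.8 CPM in wildtype, and at 68.8 to 83.3 CPM in Gne+/- C3-/- and 49.4 to 52.8 CPM in Gne+/-. The Ap4s1 ranges thus overlapped in run 1 of the Gne+/- pair alone among the 4 cells. Of all genes, 1.23% separated in this direction in run 1 of the wildtype pair. In run 2, 11.1% did so in the wildtype pair and 17.7% in the Gne+/- pair. The share separating in these cells together was not counted. Strn3, a striatin of the PP2A phosphatase complex, had −0.47 (SE 0.22) and −0.44 (SE 0.224).

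Between the members, 7 genes were tested, of which Dtd2 and Nubpl have established symbols. Dtd2, which encodes a D-aminoacyl-tRNA deacylase and starts 0.11 Mb from Heatr5a, had log2 fold changes of 0.66 (SE 0.251) and 1.05 (SE 0.257), with edgeR adjusted p-values of 0.769 and 0.0909. In run 1 it lay at 11.5 to 18.9 CPM in C3-/- libraries and 6.96 to 19.0 CPM in wildtype libraries, and at 16.9 to 20.4 CPM in Gne+/- C3-/- libraries and 7.32 to 10.2 CPM in Gne+/- libraries. Its run 2 values lay at 7.20 to 10.7 CPM in C3-/- and 3.56 to 5.98 CPM in wildtype, and at 6.39 to 12.2 CPM in Gne+/- C3-/- and 2.71 to 6.76 CPM in Gne+/-. The Dtd2 ranges overlapped in run 1 of the wildtype pair and in run 2 of the Gne+/- pair. The remaining cells separated with C3-/- higher. In that direction, 1.38% of genes separated in run 1 of the Gne+/- pair and 11.1% in run 2 of the wildtype pair. Nubpl, an assembly factor of mitochondrial complex I, had 0.13 (SE 0.178) and 0.41 (SE 0.181). On the far side of Akap6, Npas3, a transcription factor gene, had −0.12 (SE 0.141) and −0.34 (SE 0.147). Egln3, an oxygen-sensing prolyl hydroxylase, had −0.22 (SE 0.677) and −0.56 (SE 0.689). Sptssa, a subunit of serine palmitoyltransferase, had −0.45 (SE 0.406) and −0.73 (SE 0.413).

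Some of these genes were called under other settings and are named here after their values were seen. These settings also called more genes in all. In C3-/- against wildtype there were 29 calls in edgeR with the filter, 91 without it, 63 with DESeq2 and 69 with limma-voom. In Gne+/- C3-/- against Gne+/- there were 33, 306, 87 and 56 in the same order. edgeR with no filter on low counts called Scfd1 (adjusted p = 8.12e-06) and Gm48779 (adjusted p = 0.0183) in C3-/- against wildtype, and Ap4s1 (adjusted p = 0.043) and Gm35188 (adjusted p = 0.0194) in Gne+/- C3-/- against Gne+/-. DESeq2 called Gm48779 and Gm35239 in C3-/- against wildtype and Ap4s1, Dtd2 and Gm35188 in Gne+/- C3-/- against Gne+/-. Gm35239 was near the floor, with means of 1.08 CPM in C3-/- and 0.0647 CPM in wildtype retinas. limma-voom called Scfd1, which acts in transport between endoplasmic reticulum and Golgi, and Coch, which encodes cochlin, in C3-/- against wildtype, and Ap4s1 and Dtd2 in Gne+/- C3-/- against Gne+/-. Scfd1 had a log2 fold change of 1.20 (SE 0.374) in C3-/- against wildtype in edgeR, close in size to that of Heatr5a, and 0.73 (SE 0.383) in Gne+/- C3-/- against Gne+/-. In run 1 Scfd1 lay at 31.6 to 38.9 CPM in C3-/- libraries and 4.75 to 28.1 CPM in wildtype libraries, and at 39.3 to 45.8 CPM in Gne+/- C3-/- libraries and 7.68 to 49.2 CPM in Gne+/- libraries. In run 2 it lay at 51.8 to 61.2 CPM in C3-/- and 35.4 to 48.1 CPM in wildtype, and at 59.8 to 60.8 CPM in Gne+/- C3-/- and 27.8 to 41.8 CPM in Gne+/-. The Scfd1 ranges overlapped in run 1 of the Gne+/- pair. The shares of genes separating in the other cells are those given for Ap4s1. Coch had −0.63 (SE 0.211) in C3-/- against wildtype and −0.29 (SE 0.219) in Gne+/- C3-/- against Gne+/-.

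**Figure D3:**
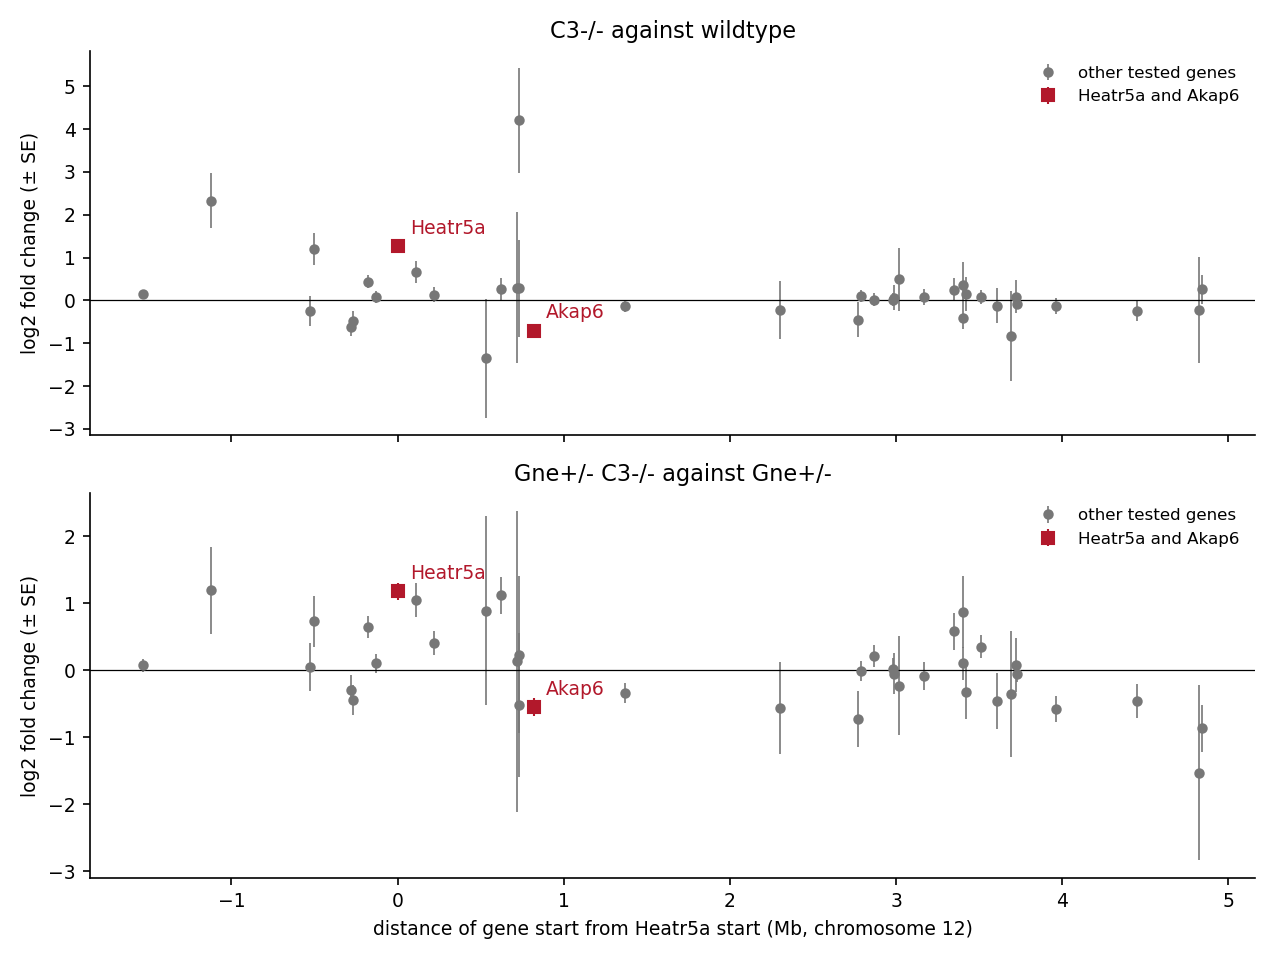
Log2 fold change with SE of the 37 other tested genes (grey) and of Heatr5a and Akap6 (red), by distance of the gene start from the start of Heatr5a in Mb, in C3-/- against wildtype (top) and Gne+/- C3-/- against Gne+/- (bottom). None of the grey genes passed the threshold in edgeR with the filter on low counts; the lowest adjusted p was 0.26 (top) and 0.0909 (bottom).

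Elsewhere on chromosome 12, 1 gene passed in a C3 comparison. It was Trappc12, a subunit gene of the TRAPP trafficking complex at −23.19 Mb from the start of Heatr5a, which passed in Gne+/- C3-/- against Gne+/-, where 0.19% of all genes did (log2 fold change 0.79, SE 0.166, edgeR adjusted p = 0.027). Trappc12 is named after its values were seen. In C3-/- against wildtype it had 0.26 (SE 0.16).

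Lists of genes around the family of Heatr5a and around mAKAP were read against the share of all genes that passed, 0.167% in C3-/- against wildtype and 0.19% in Gne+/- C3-/- against Gne+/-, at which a list of this size would hold few or no calls. Of 20 genes of the AP-1 adaptor, the aftiphilin complex and clathrin, 19 were tested and 0 passed in either direction, with median log2 fold changes of −0.06 in C3-/- against wildtype and 0.1 in Gne+/- C3-/- against Gne+/-. Heatr5b, the paralogue, had −0.16 (SE 0.298) and −0.53 (SE 0.312). The clathrin-associated Clint1 had −0.35 (SE 0.188) and 0.01 (SE 0.194), and Ap1b1, the large beta subunit of AP-1, had 0.21 (SE 0.137) and 0.08 (SE 0.141). Of 26 genes for protein kinase A subunits and partners of mAKAP, 25 were tested and 0 passed, with medians of −0.07 and −0.03. Pde4d, the phosphodiesterase bound by mAKAP, had 0.05 (SE 0.126) and 0.20 (SE 0.131). Ppp3cb, a catalytic subunit of calcineurin, had −0.21 (SE 0.105) and 0.04 (SE 0.109). Ryr2, a calcium release channel in the same complex in heart, had −0.05 (SE 0.11) and −0.08 (SE 0.114).

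Of 21 other A-kinase anchoring proteins, 19 were tested and 0 passed, near the 0.167% and 0.19% of all genes, with medians of −0.05 and 0.03. Akap13, which is also a guanine nucleotide exchange factor, had −0.23 (SE 0.12) and −0.29 (SE 0.124), and Akap7, a small membrane-bound anchor, had 0.18 (SE 0.158) and 0.20 (SE 0.163). Of 12 other HEAT repeat genes, 11 were tested, 1 was higher and 0 were lower in each C3 comparison, with medians of −0.15 and −0.11. The gene that passed was Ints4, a subunit of the Integrator complex that processes non-coding RNA. This 1 call is not read as a result about HEAT repeat genes, and a link between Ints4 and Heatr5a was not tested. Its log2 fold change was 1.11 in C3-/- against wildtype (edgeR adjusted p = 0.00264) and 0.91 in Gne+/- C3-/- against Gne+/- (edgeR adjusted p = 0.0368). Ints4 averaged 43.0 CPM in Gne+/- C3-/- retinas and 23.2 CPM in Gne+/- retinas, and 40.7 CPM in C3-/- retinas and 18.9 CPM in wildtype retinas.

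The genes whose log2 CPM ran most like the members over the 27 libraries were first sought with C3 genotype left in, centring on the 4 cells of run and Gne genotype. For Heatr5a these were Trim12a (Pearson r = 0.928), Rps13-ps2 (0.865), Rec8 (0.847) and Rps15a (0.844), and Akap6 had −0.863, the 4th lowest r of all genes. For Akap6 they were Rps13-ps1 (0.848), C3 itself (0.82), Slc4a8 (0.817) and Iqgap1 (0.81), and Heatr5a had the lowest r. These values follow C3 genotype, by which the members were chosen. Trim12a, Rps13-ps2, Rps15a and Iqgap1 lie on chromosome 7. Rec8 lies on chromosome 14, Rps13-ps1 on 8, C3 on 17 and Slc4a8 on 15. With C3 genotype removed as well, by centring on the 8 cells of group and run, the nearest to Heatr5a were Msi1 (0.757), Snx3 (0.746), Kmt2d (0.739) and Arhgef12 (0.733), and the nearest to Akap6 were Eif3g (0.931), Pde4d (0.9), Slc24a3 (0.892) and Asic2 (0.89). The points share libraries and depth, so these are descriptions.

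Within group and run, Heatr5a and Akap6 had a Pearson r of −0.396 (permutation p = 0.234) and a Spearman rank coefficient of −0.568 (permutation p = 0.0116, adjusted p = 0.0912 over 8 relations) over 27 libraries. Without the 2 libraries farthest from the median of Heatr5a, Gne+/- mice 3 and 1, r was −0.401 and the rank coefficient −0.523. Libraries far from the median of Akap6 were not left out. In run 1, wildtype mouse 6 had 639 CPM of Akap6 (group median 475) and Gne+/- mouse 5 had 634 CPM (group median 422). Within run 1 alone r was −0.38 and the rank coefficient −0.564 (n = 18), and within run 2 alone r was −0.705 and the rank coefficient −0.617 (n = 9). The relation did not pass after adjustment.

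**Figure D4:**
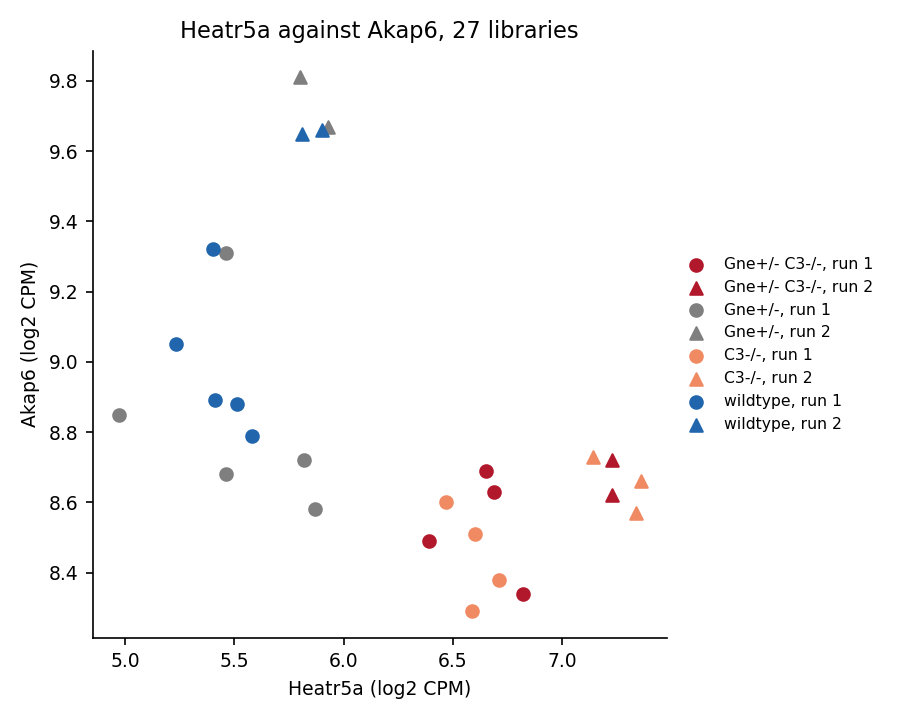
Log2 CPM of Akap6 against that of Heatr5a in 27 libraries, with colour for group and shape for run. The C3-/- libraries lie to the right, from 83.8 CPM of Heatr5a upwards, and the C3+/+ libraries to the left, up to 61.0 CPM, while in Akap6 the highest C3-/- library has 424 CPM and the lowest C3+/+ library 382 CPM.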

How the data were processed

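Libraries were made with a 3′ kit from 100 ng of total RNA. The deposited values were raw, unscaled counts of reads in genes from the authors. STAR 2.7.3a, featureCounts and Subread 2.0.0 are named, per the submitters' processing notes; version 2.0.3 and Ensembl release 101 on GRCm38 stand in the counts, per the file headers. Exon and whole-gene features were counted without strand, and reads overlapping several genes were dropped, per the file headers. Symbols matched 55141 identifiers. The counts of 27 libraries equalled those in the single-library files.

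In edgeR 4.0.16 (R 4.3.3), genes were filtered by group with filterByExpr (minimum count 10, 17409 kept), scaled by TMM and fitted by robust quasi-likelihood with group and sequencing run (22 residual degrees of freedom). The difference between runs used 1 mean per group and run (19 residual degrees of freedom). Adjusted p-values are by Benjamini and Hochberg over all genes, with a threshold of 0.05. Log2 CPM used a prior count of 2. Permutation tests were 2-sided with 100000 resamples within group and run. The procedure was tested on simulated data with planted changes of at least 2-fold. Smaller changes were not simulated. Exons and spans are from GENCODE, promoters from RefSeq.

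The genes, lists and tests were chosen with earlier results of these data known. Named neighbours were every gene past the threshold, the tested genes between the members and the 3 nearest beyond each, without provisional symbols; some genes that the rule takes are not reported here. From each list the rule took up to 4 genes with the smallest p, of which some are printed; Heatr5b, Pde4d and Ryr2 were named beyond it, after their values were seen. The alternatives tried were RLE factors, DESeq2 1.42.0, limma-voom (limma 3.58.1), no filter, a stricter filter (1 CPM exceeded in 6 libraries), no run term, each run alone, only the groups compared, a Y-linked term, the mouse number as a block, windows of 2 and 10 Mb, a prior count of 0.5, and leaving out each library.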

Additional observations from a re-analysis of the deposited data

How the results depend on the processing

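The C3 differences of Heatr5a kept their direction under all 11 alternatives (log2 1.16 to 1.44 in C3-/- against wildtype and 1.08 to 1.36 in Gne+/- C3-/- against Gne+/-) and under leaving out each of 27 libraries (1.24 to 1.3 and 1.11 to 1.25). Those of Akap6 kept theirs too (−0.99 to −0.56 and −1.08 to −0.32 over alternatives, −0.77 to −0.66 and −0.61 to −0.48 without 1 library). Both genes were chosen by these contrasts in the same counts, so a kept direction is a description and no independent support. The size for Akap6 moved with run: −0.32 in Gne+/- C3-/- against Gne+/- in run 1 only, and −0.99 in C3-/- against wildtype and −1.08 in Gne+/- C3-/- against Gne+/- in run 2 only. For its difference of the C3 effect between runs, limma-voom gave −0.67, past the threshold, and the Y-linked term −0.93, not past it.

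Values close to 0 changed sign without passing. For Heatr5a in Gne+/- C3-/- against C3-/- these were 0.00 with DESeq2, RLE factors and no filter, 0.01 with the stricter filter and with the Y-linked term, 0.02 with limma-voom and with only the groups compared, 0.07 in run 1 only, and −0.03 to 0.05 without 1 library. limma-voom gave Heatr5a 0.03 for the difference between Gne genotypes and −0.01 for Gne+/- against wildtype. Run 2 only gave Akap6 −0.09 and 0.10 for these. Same-numbered mice did not deviate together: 4 of 31 pairs had a correlation above 0.1. With the mouse number as a block, Heatr5a in Gne+/- C3-/- against C3-/- was 0.10 and Akap6 in Gne+/- C3-/- against Gne+/- was −0.62. With this block, no call of either gene changed in the tests of Gne genotype, of the difference between Gne genotypes and of the difference between runs.

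Counts of genes called moved more. Of the genes within 5 Mb, DESeq2 called 2 in C3-/- against wildtype and 3 in Gne+/- C3-/- against Gne+/-, no filter called 2 and 2, limma-voom 2 and 2, and leaving out 1 library 0 to 1 in each: Gm35239 and Gm35188 without wildtype mouse 4, Ap4s1 without Gne+/- mouse 5 and Dtd2 without Gne+/- mouse 7. Over all genes, C3-/- against wildtype gave 29 calls, and 63 with DESeq2, 91 with no filter, 69 with limma-voom, 13 with no run term and 25 to 35 without 1 library. Gne+/- C3-/- against Gne+/- gave 33, and 87, 306, 56 and 13 under the same settings, 11 in run 2 only, 20 with only the groups compared and 20 to 40 without 1 library (20 without Gne+/- C3-/- mouse 3). The difference between Gne genotypes gave 0, and 30 with no filter and 4 in run 2 only. Gne+/- against wildtype gave 1, and 8, 72, 2 and 0 under the same 4 settings, with 1 to 2 without 1 library (2 without Gne+/- mouse 5). Gne+/- C3-/- against C3-/- gave 1, and 9 with no filter, 0 with no run term and 5 in run 2 only. The difference between runs gave 7, and 34 with DESeq2, 119 with no filter, 30 with limma-voom, 1 with the Y-linked term and 3 to 126 without 1 library (3 without Gne+/- C3-/- mouse 8, 4 without each of C3-/- mice 7, 8 and 9, 126 without wildtype mouse 8). Causes of these shifts were not tested. The difference between runs has no value in a single run or without a run term. With 2 or 3 libraries per group in run 2, small differences there are not detectable.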
